A study of Homo sapiens with 4 samples.

Results

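The genes described here are 10 sensors of nucleic acid in the cytosol and the proteins that act directly with them, out of 61228 genes counted in the series. They were taken by symbol, and each of the 10 symbols was found in the count tables. The DNA arm has 6 members (CGAS, IFI16, AIM2, ZBP1, STING1 and ENPP1) and the RNA arm has 4 (RIGI, IFIH1, DHX58 and MAVS). RNA-seq was carried out on H1792, an established human lung cancer cell line whose genotype is given as WT. Cells kept for 96 h with the solvent DMSO (2 libraries) were compared with cells kept for 96 h with ACBI1 (2 libraries). The labels write the dose of ACBI1 as 1 mM; whether the unit is right is not known. ACBI1 is a PROTAC, a molecule that brings its target proteins to the VHL ubiquitin ligase for degradation, and its targets are SMARCA2, SMARCA4 and PBRM1 of the SWI/SNF chromatin remodelling complexes. The series is titled for SMARCA4-mutant lung cancer and STING; the question followed here is how the transcripts of both sensing arms stood after the degrader.

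Cells recognise nucleic acid that is out of place. In the DNA arm, cGAS binds double-stranded DNA and makes the second messenger cyclic GMP-AMP (cGAMP), which binds the membrane adaptor STING. In the RNA arm, the helicases RIG-I and MDA5 bind viral-type RNA and pass the signal through their CARD domains to MAVS, an adaptor on mitochondria. Both adaptors lead to the kinase TBK1, the factor IRF3 and type I interferon, and interferon in turn is known to induce many of the sensors. In lung cancer the DNA arm is studied because DNA that leaks from the nucleus or from mitochondria can trigger it.

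Transcripts of 8 members were abundant enough to be tested, 4 in each arm. Of these 8, 4 fell with ACBI1 and 0 rose at a Benjamini-Hochberg adjusted p under 0.05 in edgeR's quasi-likelihood test; CGAS had a positive change at an unadjusted p of 0.00893 and was called higher by DESeq2 (adjusted p 0.0270). The falls were divided evenly between the arms, with STING1 and IFI16 in the DNA arm and DHX58 and MAVS in the RNA arm. Over all 19159 genes tested, 10.6% were called lower, 6.75% higher and 17.4% in either direction. The median log2 change was -1.45 in the DNA arm and -0.61 in the RNA arm, beside 0.0080 over all genes tested. In the DNA arm the tested members ran from -4.18 (STING1) to 0.67 (CGAS), and in the RNA arm from -2.59 (DHX58) to -0.18 (IFIH1). The ACBI1 libraries did not overlap the DMSO libraries in 7 of the 8, against 63.2% of all genes tested, and IFIH1 was the exception. With 2 libraries a group, an exact permutation test of a single value cannot go below p = 0.333, so no test of that kind is given. The other 2 members, AIM2 and ZBP1, did not pass the filter on low counts. Which members were called changed when a library was left out. Such fits leave 1 library in a group and test other numbers of genes, so only changes are given here. The log2 change then ran from 0.51 to 0.85 for CGAS, from -0.73 to -0.34 for ENPP1 and from -0.68 to -0.55 for MAVS.

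**Figure D1:**
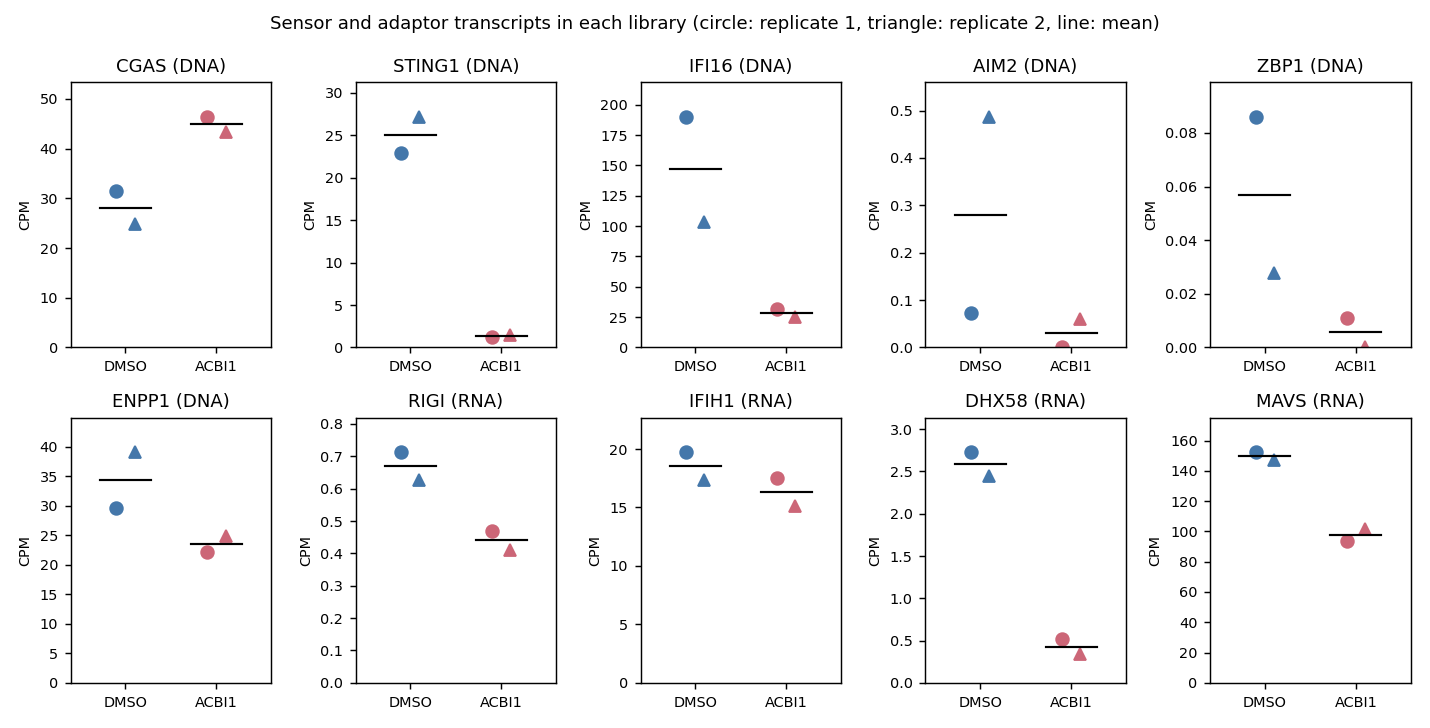
Counts scaled to library size (CPM) of the 10 members in each of the 4 libraries, with a vertical axis from 0 for each gene; circles are replicate 1, triangles replicate 2 and black lines the group means. STING1 went from 22.9 and 27.2 CPM to 1.28 and 1.48 CPM, and CGAS lay above both DMSO libraries in both ACBI1 libraries.

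Counts assigned to genes summed to between 64281850 and 86010100 per library. Levels are given as CPM on library sizes scaled by TMM. The labels number the libraries of a group as replicates and do not say whether these were separate cultures, so p-values measure the spread between these libraries, which may be technical. Among the degrader's targets, SMARCA4 transcripts had higher values with ACBI1 (283.6 and 216 against 413.8 and 397.8 CPM, log2 change 0.70) at an adjusted p of 0.0583. That call turned on the setting: SMARCA4 was called higher in 6 of 8 other fits of the 4 libraries without a replicate block. With each library left out in turn its log2 change ran from 0.51 to 0.91. SMARCA2 and PBRM1 did not pass, with log2 changes of -0.40 (adjusted p 0.163) and 0.10 (adjusted p 0.734), and the target proteins were not analysed here. Of 10 lung epithelial markers, 8 had over 3 counts in each library, led by the keratin genes KRT7, KRT8 and KRT18. CDH1, NAPSA and SFTPB were among these 8 at no more than 0.236 CPM in any library. SFTPC had 1 count in DMSO replicate 2 and 0 elsewhere, and NKX2-1, the defining factor of the lung lineage, had 0 counts in each. The summed level of these 10 was 982 and 1035 CPM with DMSO and 324 and 202 CPM with ACBI1. That sum is mostly the 3 keratins, which were called lower together with KRT19, while EPCAM, an epithelial adhesion gene, had a mean of 4.08 CPM with DMSO and 10.2 CPM with ACBI1 (adjusted p 0.179). Leukocyte markers, which matter here because several sensors are known from white blood cells, summed to 0.602 and 2.13 CPM with DMSO and 0.748 and 0.732 CPM with ACBI1, with CD3E and MS4A1 at 0 in each library and 2 of the 9 above 3 counts in each. All 6 fibroblast markers had over 3 counts in each library. They summed to 1001 and 1979 CPM with DMSO and 88.1 and 272 CPM with ACBI1, mostly from COL1A1 and COL1A2. The 4 endothelial markers summed to 12.8 and 49.0 CPM with DMSO and 0.123 and 0.107 CPM with ACBI1. Only 1 of these 4 was above 3 counts in each library, and with DMSO their sum was nearly all PECAM1 (12.2 and 48.1 CPM). The labels name a cell line, so these markers describe transcripts of that line and do not show that such cell types were present. The part of these marker changes in the results on sensors was not tested. In a bulk sample, fewer cells carrying a transcript and less of it per cell cannot be told apart.

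Among the DNA sensors, CGAS had higher values without passing the test, and IFI16 fell. CGAS encodes cGAS, the enzyme that makes cGAMP on DNA. It lies on chromosome 6 from 73413515 to 73452276 on the minus strand (hg38, GENCODE release 29, as for each position of a gene below). CGAS was at 31.4 and 24.9 CPM in the DMSO libraries and at 46.4 and 43.4 CPM in the ACBI1 libraries. Both ACBI1 values were above both DMSO values, and the means stood at 28.1 ± 4.58 and 44.9 ± 2.08 CPM (SD, n = 2). The log2 change of 0.67 (SE 0.18, 95% interval 0.24 to 1.11) lay just outside the threshold (adjusted p 0.0508 in edgeR). This call turned on the setting. The adjusted p ranged from 0.0180 to 0.0529 over 8 other fits of the 4 libraries without a replicate block. It was under 0.05 in 6 of these fits. With each library left out in turn the log2 change ran from 0.51 to 0.85.

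IFI16 encodes a PYHIN protein that binds DNA in nucleus and cytosol and is known to work with STING. It lies on chromosome 1 from 158999968 to 159055155 on the plus strand. Its transcripts were at 190 and 103 CPM with DMSO and at 32.1 and 25.2 CPM with ACBI1. The DMSO replicates differed from each other more than the ACBI1 replicates did, and the groups did not overlap. IFI16 fell by 2.35 on the log2 scale (SE 0.32, 95% interval -3.13 to -1.58, adjusted p 0.00846), which left it at 19.5% of its DMSO mean. With each library left out in turn its log2 change ran from -2.73 to -1.85, and each of the 4 adjusted p was at most 0.0194.

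AIM2, the PYHIN protein that starts an inflammasome on DNA in the cytosol, is encoded next to IFI16, 7328 bases away, from 159062484 to 159147096 on the minus strand of chromosome 1. Its counts were 6 and 35 for DMSO and 0 and 4 for ACBI1. DMSO replicate 2 held most of these counts, and the other libraries had few; 0 counts in ACBI1 replicate 1 allow up to 0.0335 CPM (3 counts). The ratio of DMSO to ACBI1 counts per library size was 10.4, with an exact 95% interval of 3.75 to 39.8 that covers counting error and not the spread between libraries. In fits that kept it, AIM2 had an adjusted p of 0.00157 in edgeR with every detected gene kept and of 0.131 in DESeq2. With 1 library omitted its fitted log2 change went from -7.50 (without ACBI1 replicate 2, adjusted p 0.0991) to -2.14 (without ACBI1 replicate 1, adjusted p 0.407), and was -4.09 without DMSO replicate 1 (adjusted p 0.0161). MNDA and PYHIN1, the other PYHIN genes of this stretch of chromosome 1, had 0 counts in each library and 0, 2, 1 and 0 counts.

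ZBP1 encodes a sensor of left-handed nucleic acid that signals to cell death through RIPK3. It lies on chromosome 20 from 57603846 to 57620576 on the minus strand. ZBP1 had 7 and 2 counts with DMSO and 1 and 0 with ACBI1, where 0 counts allow up to 0.0458 CPM. The ratio of DMSO to ACBI1 counts per library size was 9.10, with an exact 95% interval from 1.26 to 399, and its level was close to the limit of detection in each library. RIPK3, its partner, was seen in ACBI1 replicate 1 (3 counts) and had 0 elsewhere.

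STING1 encodes STING, the adaptor of the DNA arm, and lies on chromosome 5 from 139475534 to 139482935 on the minus strand (listed there as TMEM173). Its transcripts were at 22.9 and 27.2 CPM with DMSO and at 1.28 and 1.48 CPM with ACBI1, from 3822 and 212 counts. The libraries of each group lay close together and far from the other group, at a DMSO mean 18.1 times that of ACBI1. STING1 fell by 4.18 on the log2 scale (SE 0.24, 95% interval -4.78 to -3.59, adjusted p 0.00141). This was the lowest log2 change among the 8 tested members, and it ran from -4.29 to -4.06 with each library left out in turn.

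ENPP1 encodes the membrane enzyme that hydrolyses cGAMP outside the cell and so acts against the DNA arm. It lies on chromosome 6 from 131808016 to 131895155 on the plus strand. It was at 29.7 and 39.0 CPM with DMSO and at 22.1 and 24.9 CPM with ACBI1. Both ACBI1 values were below both DMSO values, yet the log2 change of -0.55 (SE 0.20, 95% interval -1.03 to -0.07) had an adjusted p of 0.11 and was not called. ENPP1 was called in 0 of 8 other fits of the 4 libraries without a replicate block. With each library left out in turn its log2 change ran from -0.73 to -0.34.

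Within the DNA arm, the adaptor stood lower against the enzyme with ACBI1. Per kilobase (kb) of exon, which makes levels of different genes comparable, STING1 stood at 0.789 and 1.18 times the level of CGAS in the DMSO libraries and at 0.0299 and 0.0368 times in the ACBI1 libraries. The 95% intervals of their log2 changes did not overlap. ENPP1 went from 0.50 and 0.555 times the level of STING1 to 6.66 and 6.50 times. IFI16 held 68.5% and 53.2% of the summed level per kb of the DNA arm with DMSO and 30.7% and 26.3% with ACBI1, while CGAS went from 14.4% and 16.3% to 56.4% and 57.6%. The sum itself fell, so the share of CGAS rose more than its level, whose mean went from 6.77 to 10.8 CPM per kb. These ratios are descriptions without a test.

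In the RNA arm, the CARD-bearing sensors RIG-I and MDA5 did not pass the test. RIGI encodes RIG-I, which binds short double-stranded RNA with a triphosphate end, and lies on chromosome 9 from 32455705 to 32526324 on the minus strand (listed there as DDX58). It was at 0.712 and 0.625 CPM with DMSO and at 0.469 and 0.412 CPM with ACBI1. The groups did not overlap, but the values rested on 103 and 69 counts, and the log2 change of -0.60 (SE 0.39, 95% interval -1.54 to 0.34) had an adjusted p of 0.328. Per kb of exon, IFIH1 exceeded RIGI 23.6-fold in both DMSO libraries and 31.9-fold and 31.3-fold in the ACBI1 libraries. Reads that fall in more than 1 gene can be left uncounted by HTSeq; TREX1, with 100% of its exonic length under ATRIP in GENCODE, had 0 counts in each library, and whether the overlap accounts for this was not tested. GENCODE release 29 has no gene over the exons of RIGI, but the annotation behind the counts uses later symbols and was not examined, so the low level of RIGI against other genes is uncertain.

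IFIH1 encodes MDA5, the sensor of long double-stranded RNA, and lies on chromosome 2 from 162267079 to 162318703 on the minus strand. It was at 19.7 and 17.4 CPM with DMSO and at 17.5 and 15.1 CPM with ACBI1. The groups overlapped, and the log2 change of -0.18 (SE 0.19, adjusted p 0.555) had a 95% interval from -0.65 to 0.29.

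DHX58 encodes LGP2, the third helicase of this family, which lacks the CARD domains and tunes signalling by the other two. It lies on chromosome 17 from 42101404 to 42112733 on the minus strand. DHX58 was at 2.73 and 2.45 CPM with DMSO and at 0.514 and 0.336 CPM with ACBI1, from 398 and 68 counts. The groups lay well apart, and DHX58 fell by 2.59 on the log2 scale (SE 0.39, 95% interval -3.54 to -1.64, adjusted p 0.0109). Its log2 change ran from -2.93 to -2.34 with each library left out in turn, with adjusted p of at most 0.0360. The interval of DHX58 did not overlap that of IFIH1, and per kb of exon DHX58 went from 0.184 and 0.187 to 0.0389 and 0.0295 times the level of IFIH1.

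MAVS, the adaptor of the RNA arm, lies on chromosome 20 from 3846799 to 3876123 on the plus strand. It was at 152 and 147 CPM with DMSO and at 93.7 and 102 CPM with ACBI1. The replicates lay close together in both groups, and the ACBI1 mean was 65.4% of the DMSO mean. MAVS fell by 0.61 on the log2 scale (SE 0.15, 95% interval -0.99 to -0.24) with an adjusted p of 0.0440, close to the threshold. The call was lost when any library was left out (adjusted p 0.0881 and 0.0844 without DMSO replicates 1 and 2, and 0.257 and 0.151 without ACBI1 replicates 1 and 2) and under scaling by library size alone (adjusted p 0.0565), while the log2 change stayed between -0.68 and -0.53.

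**Figure D2:**
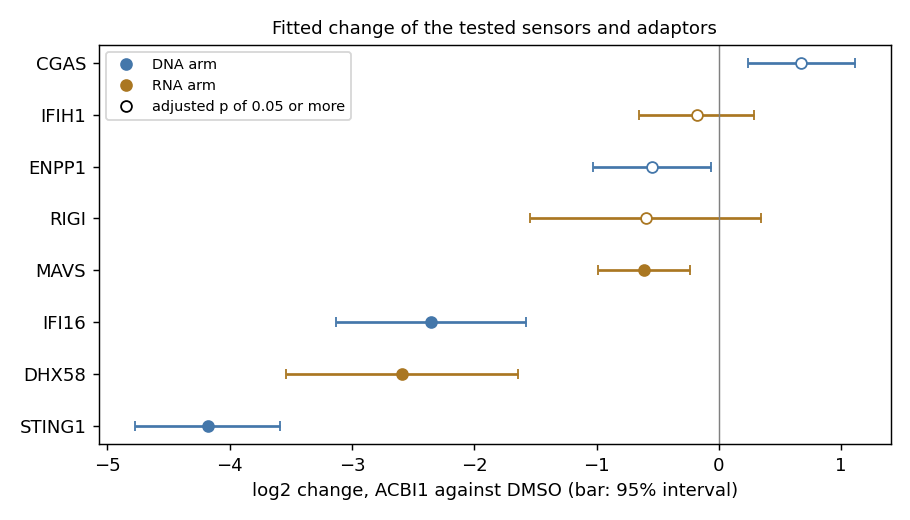
Fitted log2 change of the 8 tested members, ACBI1 against DMSO, with 95% intervals; blue marks the DNA arm, brown the RNA arm, and open circles an adjusted p of 0.05 or more. STING1, DHX58 and IFI16 lie at -4.18, -2.59 and -2.35, and CGAS is the member with a positive value, 0.67.

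Side by side, both adaptors fell, by different amounts. The interval of STING1 (-4.78 to -3.59) and that of MAVS (-0.99 to -0.24) did not overlap. MAVS stood at 2.17 and 1.77 times the level of STING1 per kb of exon in the DMSO libraries and at 23.9 and 22.5 times in the ACBI1 libraries. Summed over its members, the DNA arm went from 52.4 and 36.8 to 19.8 and 18.1 CPM per kb, and the RNA arm from 17.7 and 16.7 to 11.6 and 11.8 CPM per kb. IFI16 alone went from 35.9 and 19.5 to 6.06 and 4.765 CPM per kb, so the fall of the DNA arm's sum is mostly that of IFI16. The DNA arm's sum also includes ENPP1, which acts against the arm, and CGAS, which had higher values with ACBI1. MAVS held 68.4% to 74.9% of the RNA arm's sum in each library, so that arm's sum largely follows MAVS.

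With DMSO, the order per kb of exon was IFI16 (27.7 CPM per kb), MAVS (12.7), CGAS (6.77), STING1 (6.51), IFIH1 (3.63), ENPP1 (3.45), DHX58 (0.673), RIGI (0.154), AIM2 (0.139) and ZBP1 (0.0105). Neighbours in this order whose libraries overlapped were CGAS with STING1, IFIH1 with ENPP1, and RIGI with AIM2. With ACBI1, CGAS came first (10.8 CPM per kb), before MAVS (8.31), IFI16 (5.41), IFIH1 (3.20), ENPP1 (2.36), STING1 (0.359), DHX58 (0.11), RIGI (0.101), AIM2 (0.0152) and ZBP1 (0.0010). In that group DHX58 overlapped RIGI, and AIM2 overlapped ZBP1. CGAS moved from the third place to the first and STING1 from the fourth to the sixth. Exon lengths are those of all GENCODE transcripts of a gene joined, and transcripts that the cells do not use lower the value of a gene.

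**Figure D3:**
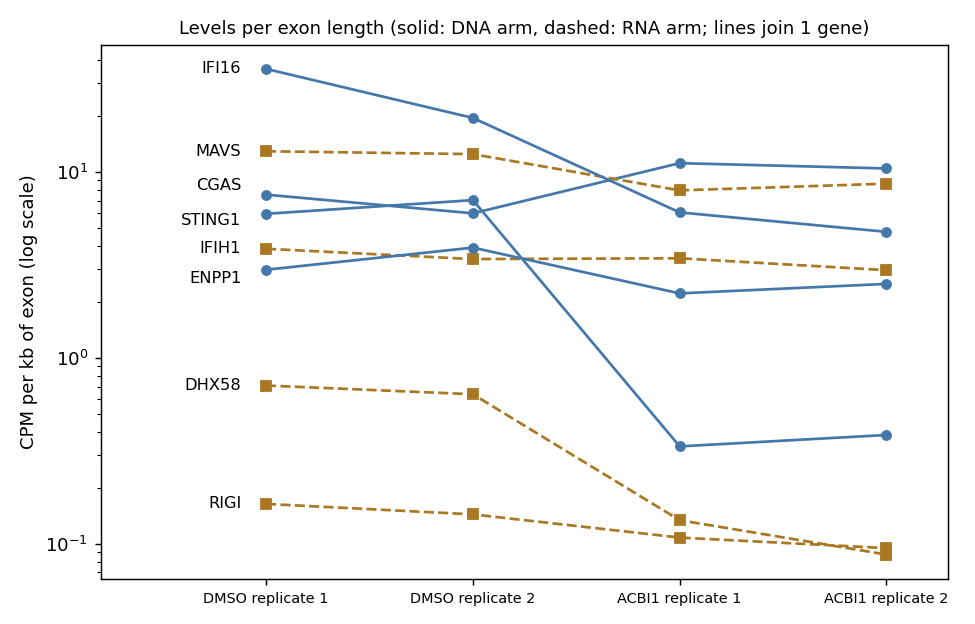
CPM per kb of exon on a log scale for the 8 tested members in the 4 libraries; solid blue lines are the DNA arm, dashed brown lines the RNA arm, and a line links the points of 1 gene. STING1 starts beside CGAS at 5.96 and 7.06 CPM per kb with DMSO and drops to 0.334 and 0.384 CPM per kb with ACBI1.

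The DNA in front of these genes was examined because several of the 10 are known to be induced by interferon. RefSeq sequences (GRCh38.p14) of the 250 bases before the start site were at hand for 6 members, namely IFI16, AIM2, ENPP1, RIGI, IFIH1 and MAVS. For IFI16 and AIM2 the whole window lies inside the gene span printed above, so it is that of an internal start and not of the outermost one. The windows of ENPP1, RIGI, IFIH1 and MAVS enter their gene spans at the end nearest the start site, so all 6 windows lie at least partly inside. They were searched on both strands for GAAANNGAAA, a core of the interferon-stimulated response element (ISRE), for TGANTCA, the AP-1 site, and for TTCNNNGAA, the interferon-gamma activated site. Of 35114 promoters of this length, 3.02% held the first, 6.57% the second and 6.57% the third. IFIH1, whose transcripts did not pass the test, had 3 ISRE matches, starting at positions -159, -153 (these 2 overlap) and -21 from the start site. The match at -21 lies partly inside the gene span. AIM2 had 1 ISRE match at -190 and 1 AP-1 match at -155. The other 4 windows held none of these letters. In CG dinucleotides the windows ranged from 0 (IFI16, called lower) to 28 (MAVS, also called lower, and ENPP1, not called), the latter above 84.1% of promoters. The sequences shown are the stretches of IFIH1 and AIM2 that hold the matches, in capitals, and, for the contrast in CG, the whole window of IFI16 and the first 215 bases of that of MAVS, which hold 23 of its 28 CG, in capitals. A match is a description and not a site shown to be bound.
IFIH1 chr2:162318694-162318844, minus strand, with ISRE matches in capitals: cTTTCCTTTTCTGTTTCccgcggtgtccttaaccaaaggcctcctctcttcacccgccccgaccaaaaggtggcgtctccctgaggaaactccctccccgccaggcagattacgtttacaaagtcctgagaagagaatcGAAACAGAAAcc
AIM2 chr1:159076902-159077016, minus strand, with ISRE and then AP-1 matches in capitals: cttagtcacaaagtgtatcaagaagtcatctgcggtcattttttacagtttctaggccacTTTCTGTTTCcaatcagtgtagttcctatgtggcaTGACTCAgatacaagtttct
IFI16 chr1:159008741-159008990, plus strand, with CG in capitals (none found): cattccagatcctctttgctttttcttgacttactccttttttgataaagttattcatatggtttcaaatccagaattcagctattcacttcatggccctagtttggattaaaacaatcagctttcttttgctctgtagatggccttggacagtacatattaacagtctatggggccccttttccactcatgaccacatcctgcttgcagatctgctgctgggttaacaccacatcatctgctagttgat
MAVS chr20:3846584-3846798, plus strand, with CG in capitals: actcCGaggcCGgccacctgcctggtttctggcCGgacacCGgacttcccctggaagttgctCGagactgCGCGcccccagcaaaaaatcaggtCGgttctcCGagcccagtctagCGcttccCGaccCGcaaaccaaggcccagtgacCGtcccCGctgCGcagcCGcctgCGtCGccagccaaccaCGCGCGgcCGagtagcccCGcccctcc

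The genes around the 10 members were followed through 10 lists with 169 distinct genes, of which 155 could be tested, 8 were called higher (5.16%) and 25 lower (16.1%), beside 6.75% and 10.6% of all genes tested. The share called in either direction is given for each list, to be read against 17.4% over all genes. The lists were chosen with earlier results of these data known, so these shares are descriptions. For the cGAMP transport and breakdown list, 1 of 9 tested genes rose and the other 8 were not called (11.1% called, median log2 change -0.17). This was SLC19A1, a folate carrier that also imports cGAMP, which went from 56.4 ± 8.17 to 101 ± 19.5 CPM (SD, n = 2, adjusted p 0.0402); the call was lost without DMSO replicate 2 or without either ACBI1 library (adjusted p 0.0548 to 0.179). In the list on clearance of self nucleic acid, 1 of 12 fell and the other 11 were not called (8.33% called, median -0.02). DNASE2, the DNase of lysosomes, fell by 1.10 on the log2 scale (adjusted p 0.0325); omitting ACBI1 replicate 1 gave 0.131. Both of these lists had more calls without DMSO replicate 1, as was the case over all genes. Among other proposed DNA sensors, 2 of 17 rose and the other 15 were not called (11.8% called, median 0.30). PRKDC, the catalytic subunit of DNA-PK, went from 228 ± 22.1 to 485 ± 11.7 CPM (SD, n = 2, adjusted p 0.0125), and MRE11, a nuclease of double-strand break repair, rose by 0.65 on the log2 scale (adjusted p 0.0467). The call on MRE11 was lost without DMSO replicate 2 or either ACBI1 library, with log2 changes of 0.51 to 0.68 in these fits. This list had more calls without DMSO replicate 1 and fewer without any other library, as was the case over all genes.

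Genes for STING trafficking and control had 7 falls among 28 tested, with the other 21 not called (25% called, median -0.23). SEL1L and SYVN1, the scaffold and the ubiquitin ligase of protein disposal at the endoplasmic reticulum, had log2 changes of -1.50 (adjusted p 0.00972) and -1.38 (adjusted p 0.00534). YIPF5 and SURF4, which act in transport between the endoplasmic reticulum and the Golgi, changed by -1.44 (adjusted p 0.00607) and -1.04 (adjusted p 0.0206; 0.117 when ACBI1 replicate 1 is omitted). Fewer genes of this list were called when either ACBI1 library was omitted, as was the case over all genes.

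Cofactors of RIG-I and MDA5 went both ways, with 2 rises and 1 fall among 24 tested (median 0.07); the 12.5% called is below the share over all genes. TRIM65, a ubiquitin ligase that activates MDA5, rose from 68.6 ± 3.57 to 148 ± 19.0 CPM (SD, n = 2, adjusted p 0.0116). RNF125, a ligase that marks RIG-I for degradation, rose by 1.19 on the log2 scale (adjusted p 0.0137; 0.0565 when ACBI1 replicate 1 is omitted), and CYLD, a deubiquitinase, fell by 1.31 (adjusted p 0.0103). TRIM25, a ligase linked to RIG-I, had 226 and 166 CPM in DMSO libraries, 309 and 190 CPM in ACBI1 libraries, and was not called (adjusted p 0.436). MAVS signalling partners had 2 rises and 2 falls among 33 tested (median 0.02); the 12.1% called is likewise below it. The rises were TRAF3 (log2 change 0.78, adjusted p 0.0346), an adaptor between MAVS and TBK1, and C1QBP (0.85, adjusted p 0.0254), a mitochondrial protein reported to bind MAVS. The falls were TANK (-0.96, adjusted p 0.0186), a scaffold of TBK1, and FADD (-1.06, adjusted p 0.0467), with another gene over 54.9% of the exonic length of FADD. None of these 4 calls held under every single-library omission, and the list had 0 calls without ACBI1 replicate 1, 2 without ACBI1 replicate 2, 1 without DMSO replicate 2 and 6 without DMSO replicate 1. Over all genes these fits called 6.89%, 8.84%, 12.8% and 21.3%.

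**Figure D4:**
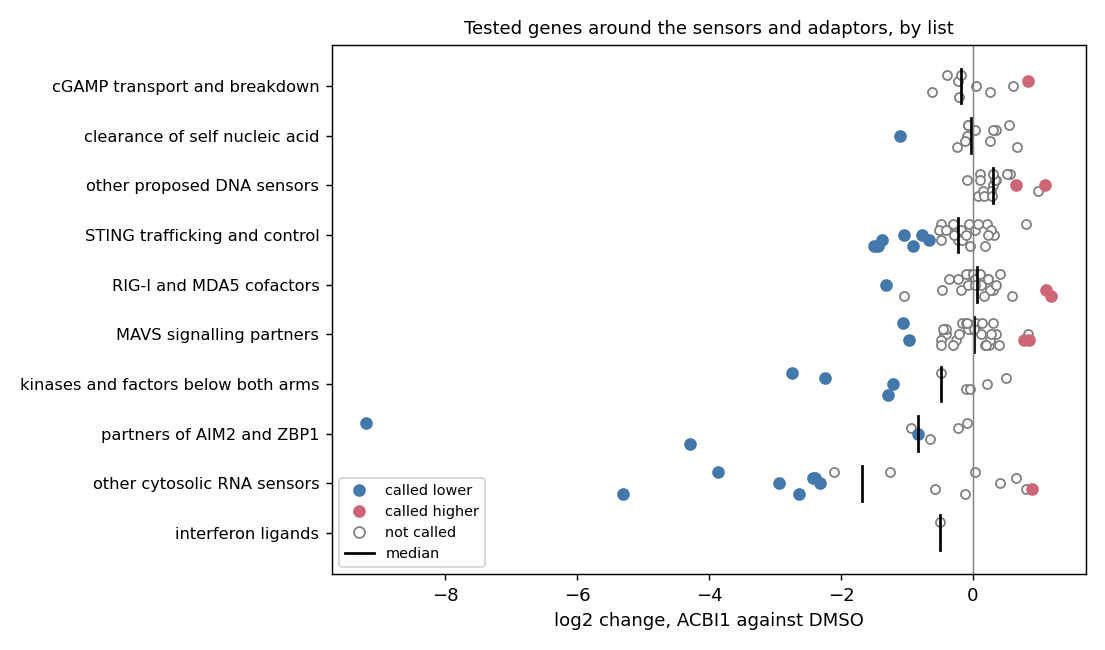
Log2 change of each tested gene in the 10 lists around the sensors, ACBI1 against DMSO; blue points were called lower, red points called higher, open points were not called, and black bars are medians. The list of other cytosolic RNA sensors has its median at -1.68, and the lists of RIG-I and MDA5 cofactors and of MAVS partners have theirs at 0.07 and 0.02.

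Below both arms, 4 of 9 kinases and transcription factors fell and the other 5 were not called (44.4% called, median -0.49). IKBKE, the kinase related to TBK1, went from 41.6 ± 3.82 to 6.19 ± 1.02 CPM (SD, n = 2, adjusted p 0.00231). IRF1, STAT6 and IRF7 had log2 changes of -2.23 (adjusted p 0.00396), -1.21 (adjusted p 0.00829) and -1.29 (adjusted p 0.0425), the last not called without DMSO replicate 1 or either ACBI1 library (adjusted p 0.0565 to 0.149). TBK1 was at 58.9 and 59.2 against 57.5 and 57.0 CPM, and IRF3 at 45.1 and 53.1 against 54.0 and 60.4 CPM. Neither was called (adjusted p 0.862 and 0.397).

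Partners of AIM2 and ZBP1 had 3 falls among 7 tested, with the other 4 not called (42.9% called, median -0.83). CASP1, the inflammasome protease, had 735 DMSO counts against a single ACBI1 count (501, 234, 1 and 0 by library), a ratio per library size of 743 (exact 95% counting interval 133 to 29390, adjusted p 0.00265). MEFV, which encodes pyrin, had 84 and 4 counts (adjusted p 0.0132; 0.0609 when ACBI1 replicate 1 is omitted). GSDMD, the pore protein cut by inflammasome caspases, fell by 0.83 on the log2 scale (adjusted p 0.0195), a call lost without ACBI1 replicate 1 (0.118) or 2 (0.0785). Fewer genes of this list were called without ACBI1 replicate 1, as was the case over all genes. MLKL, the effector below RIPK3, had 33.7 and 33.1 against 27.9 and 34.6 CPM, groups that overlapped, and was not called (adjusted p 0.746).

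Other cytosolic RNA sensors had 7 falls and 1 rise among 16 tested (50% called, median -1.68). The number of calls in this list changed with the library left out, as it did over all genes. OASL and OAS2, of the oligoadenylate synthetase family, had 250 and 6 counts (adjusted p 0.00854) and a log2 change of -2.94 (adjusted p 0.00966). OAS1 was also called lower (log2 change -2.39, adjusted p 0.0259), a call lost when ACBI1 replicate 2 is omitted. IFIT2 and IFIT3 were called lower as well (log2 changes -2.43 and -2.31, adjusted p 0.0182 and 0.00765). OAS3, the OAS gene with the most counts, had higher values with ACBI1 (30.8 and 19.2 against 48.7 and 38.9 CPM). OAS3 was not called in edgeR (adjusted p 0.0859), and DESeq2 called it higher (adjusted p 0.0388). The rise was DHX33, an RNA helicase, at 121.5 and 89.5 against 213.7 and 181 CPM (adjusted p 0.0353), a call lost without DMSO replicate 2 or either ACBI1 library (0.0666 to 0.147). NOD2 had 74 and 5 counts (adjusted p 0.0134; 0.0527 when ACBI1 replicate 2 is omitted), and NLRP1, an inflammasome sensor, went from 31.1 ± 0.357 to 4.99 ± 2.88 CPM (SD, n = 2, adjusted p 0.0118). EIF2AK2, which encodes the RNA-activated kinase PKR, had 117 and 113 against 109.9 and 101 CPM and was not called (adjusted p 0.617). Of 7 interferon genes, IFNE could be tested and was not called (log2 change -0.50, adjusted p 0.607); IFNB1 had 0 and 1 counts with DMSO and 1 and 0 with ACBI1.

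Genes with the pattern most like a member's were sought by the distance, over the 4 libraries, between log2 values of CPM plus 0.5 centred on the DMSO mean. For STING1, among 7386 tested genes of similar level, the nearest were IL32 (distance 0.133), TCIM (0.140) and ECM1 (0.180), and 12 genes lay within 0.5. IL32 had 71.4 and 77.5 against 5.03 and 5.05 CPM. TCIM, at 6.51 and 8.24 against 0.0112 and 0.0763 CPM, was nearer on this scale than its fitted log2 change of -7.48 would place it, since the added 0.5 compresses low values. For RIGI, 1719 of 6079 genes lay within 0.5, and the nearest were ENSG00000283839 (distance 0.0381), SEMA3G (0.0495) and BEST4 (0.0514). At the level of RIGI the added 0.5 is about as large as the values, so genes can lie close despite different fitted changes. BEST4 had a fitted log2 change of -1.44, against -0.60 for RIGI. These likenesses rest on 4 libraries of 2 groups and are descriptions.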

How the data were processed

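RNA-seq counts from 4 libraries of H1792 cells were used. The authors deposited raw counts of reads per gene symbol, in the layout of htseq-count. The submitters' processing notes name TopHat2 2.1.1, HTSeq 0.11.0 and hg38; annotation and strand setting are not given in the sources used here. Per the labels' protocols, libraries were made with a NEBNext kit named for DNA. Reads assigned to genes were 84.6% to 86.1% of those listed, and the 5 lines naming no gene, which held the rest, were left out. Groups and replicate numbers came from titles.

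Genes were filtered with filterByExpr (minimum count 10, total 15), scaled by TMM and tested in edgeR 4.0.16 under R 4.3.3 (two-sided quasi-likelihood test on treatment, Benjamini-Hochberg over 19159 genes, called under 0.05). The alternatives were other scalings, other filters, DESeq2 1.42.0, limma-voom (limma 3.58.1), a robust fit, a replicate block, calls at 0.01, calls limited to a log2 change past 1, and omission of single libraries. Scripts were tested on simulated data. Gene positions, exon lengths and overlaps came from GENCODE release 29 (GRCh38), matched by gene ID. Intervals of count ratios are exact binomial, and with floors (3 counts) cover counting error only. Members and lists were chosen with earlier results of these data known. Genes named are all members, the degrader's targets, up to 4 called genes per list with the largest change, and 3 genes nearest in pattern to STING1 and RIGI. TRIM25, TBK1, IRF3, MLKL, EIF2AK2, MNDA, PYHIN1, RIPK3, IFNE, IFNB1, TREX1, OAS1, OAS3, IFIT2, IFIT3 and DHX33 were added after their values were seen.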

Additional observations from a re-analysis of the deposited data

How the results depend on the processing

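STING1, IFI16 and DHX58 kept their direction in every fit run and their calls in each, except that DHX58 was not called at a threshold of 0.01 and was not tested with genes averaging under 5 CPM removed. Over all genes, 3331 calls became 5518 with every detected gene kept, 783 at a threshold of 0.01, and 1379 to 4292 with 1 library left out. The 2 calls among 4 tested members of the DNA arm became 4 among 6 with every detected gene kept (CGAS higher, AIM2 lower added). That fit called 16.8% of all genes it tested. With DESeq2, which called 21.5% of all genes it tested, they became 3 among 5 (CGAS added). The 2 calls among 4 tested members of the RNA arm became 1 under scaling by library size (9.74% of all genes called lower). They became 0 at a threshold of 0.01 (3.19% of all genes called lower) and 1 with a minimum log2 change of 1 (8.71%). With genes averaging under 5 CPM removed, 2 RNA arm members were tested and 1 was called lower (12.9% of all genes). In fits with 1 library left out, the lone library is assumed to vary like the other group. With the replicate number as a block, 7909 genes were called (41.3% of those tested). Calls then covered 4 DNA arm members (CGAS higher, adjusted p 0.00129, and ENPP1 lower, adjusted p 0.00661, added) and 2 RNA arm members. Among the targets, SMARCA4 was then called higher (adjusted p 0.00248) and SMARCA2 lower (adjusted p 0.0394). Same-numbered libraries deviated together (r = 0.518 across genes), but the labels do not say that a number marks a shared batch. Depth limits AIM2, ZBP1 and RIGI.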
